A study of Mus musculus with 24 samples.

Results

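The transcriptional intermediary factor 1 (TIF1) family of tripartite motif proteins was followed through Trim28, Trim24 and Trim33. Every non-control probe of the array that the scanner files name for 1 of these genes was taken, which gave 3 of 27962 gene names and 5 of 41174 probes: 1 for Trim28, 3 for Trim24 and 1 for Trim33. All 5 passed the filter on dim probes, as did 25198 probes in all. TIF1 proteins join a RING domain, B-boxes and a coiled coil to a PHD finger and a bromodomain, and act on chromatin as cofactors of transcription. TRIM28 (TIF1 beta, KAP1) is recruited by KRAB zinc finger proteins and brings in SETDB1 and HP1 to silence its targets. TRIM24 (TIF1 alpha) binds nuclear receptors such as the retinoic acid receptors, and TRIM33 (TIF1 gamma) binds SMAD proteins of the TGF-beta pathway. The proteins can also occur in shared complexes.

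Total RNA of CD4 T cells from female C57BL/6 mice, wild type (WT) or with a T cell-specific conditional knockout of Trim28 (CKO), was hybridized to 24 single-colour Agilent arrays. Naive cells were sorted as CD4+ CD62+ CD25- and regulatory T cells (Treg) as CD4+ CD62+ CD25+, and the mice were 6 or 7 weeks old. There were 4 arrays in each of 6 groups: WT and CKO naive cells left unstimulated, WT and CKO naive cells stimulated for 13 h with plate-bound antibodies to CD3 and CD28, and WT and CKO Treg. In the naive states same-numbered WT and CKO samples had the same age, while Treg replicate 1 came from a WT mouse of 6 weeks and a CKO mouse of 7 weeks. The promoter that drives the recombinase and the deleted exons are not given in the sources used here, and whether the arrays come from separate mice is not stated. A p-value here reflects only how much these arrays vary, which may be technical.

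The CKO Treg samples carry a treatment label of T cell receptor stimulation and the WT Treg samples a label of no stimulation, while the design text speaks of stimulating naive cells. Of 20 measured genes of T cell activation, 0 were called higher in CKO than in WT Treg and 1, Myc, a growth-promoting transcription factor, was called lower (-0.60 ± 0.15, SE, limma adjusted p = 0.0246). The call of Myc was lost under several alternatives, and the count ran from 0 to 1. It is 5% of the list, near the 3.77% of all probes called in Treg, and 7 of the 20 had an unadjusted limma p under 0.05. The list's summed log2 level was 8.69 to 8.95 in CKO Treg and 8.82 to 9.23 in WT Treg. Both Treg groups are called Treg here, and a stimulation of one of them cannot be told apart from the genotype. Foxp3, the lineage factor of Treg, had a mean log2 level of 3.20 ± 0.18 (SD, n = 4) in WT Treg and 3.29 ± 0.18 in CKO Treg, against -2.83 ± 0.33 in WT and -1.87 ± 0.39 in CKO unstimulated cells, and -3.80 ± 0.32 in WT and -1.35 ± 0.25 in CKO stimulated cells. The defining T cell genes Cd3e and Cd4 were well above background on all arrays.

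Levels are log2 of the scanner's processed signal minus the 75th percentile of the array, so that 0 is the level of that percentile. They rank arrays for 1 probe and are not compared between probes. The percentile corresponded to a scanner signal between 160 and 383 for naive cells, between 55.7 and 208 for WT Treg and between 32.5 and 119 for CKO Treg, and replicates correlated at 0.961 to 0.993 across probes. The 5 probes were neither saturated nor flagged as outliers on any array. The probes A_51_P323299 (Trim28), A_51_P152845 and A_52_P652293 (Trim24) and A_51_P478279 (Trim33) were well above background on all 24 arrays, and A_52_P148571 (Trim24) on 23. Fewer cells of a type and less RNA per cell cannot be told apart in such bulk samples.

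Trim28 lies on the plus strand of mouse chromosome 7 at chr7:13024152-13031032 in RefSeq's GRCm38.p6 annotation. Its 1 probe is placed by the deposited annotation at chromosome 7, 11617146 to 11617301, in a build that is not given in the sources used here and is not that of the gene position above. That interval is 156 bases long where those of the other 4 probes are 60. The sources used here do not say which exons are removed, so the probe is no full check of the deletion. The 250 bases before the annotated start of Trim28 (chr7:13023902-13024151, plus strand, RefSeq GRCm38.p6) are shown because the gene's level in WT cells moved with stimulation. Capitals mark the GC box GGGCGG on either strand, the motif bound by SP1.
Trim28 promoter: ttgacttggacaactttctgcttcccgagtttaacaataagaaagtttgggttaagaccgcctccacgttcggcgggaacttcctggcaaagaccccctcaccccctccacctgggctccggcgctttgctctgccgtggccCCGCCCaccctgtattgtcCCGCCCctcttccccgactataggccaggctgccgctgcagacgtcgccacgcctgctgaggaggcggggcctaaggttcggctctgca
It holds 2 GC boxes, neither the CCAAT box CCAAT nor the nuclear receptor half-site TGACCT on either strand, and 17 CpG dinucleotides. GC boxes occur in 32.7% of the 32851 RefSeq stretches of that length, and the median stretch has 6 CpG. A match in these letters describes the sequence and is no shown binding site.

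Trim28 RNA was lower in CKO cells of every state, and the gap was widest in stimulated cells, where the WT level had risen while the CKO level had not. In unstimulated cells the 4 WT arrays read 2.27, 2.42, 2.52 and 2.41 and the 4 CKO arrays 0.53, 0.85, 0.96 and 1.23. In stimulated cells the WT arrays read 3.35, 3.83, 3.72 and 3.55 and the CKO arrays 1.04, 1.01, 1.20 and 0.48. In Treg the WT arrays read 2.19, 1.76, 1.85 and 2.00 and the CKO arrays 0.21, 0.16, 0.56 and 0.63. In all 3 states every CKO array lay below every WT array. How many of all probes separate in this way was not counted, so this separation, and that of the Trim24 probes below, is description only.

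The log2 fold change of CKO over WT was -1.51 ± 0.17 (SE) in unstimulated cells (limma adjusted p = 5.63e-06), -2.68 ± 0.17 in stimulated cells (adjusted p = 1.31e-09) and -1.56 ± 0.17 in Treg (adjusted p = 2.7e-06). For comparison, 19.5% of the 25198 probes were called in unstimulated cells, 22.4% in stimulated cells and 3.77% in Treg. The Trim28 signal left in CKO cells was 35.1% of WT (95% interval 27.4 to 44.9%) in unstimulated cells, 15.6% (12.2 to 19.9%) in stimulated cells and 33.9% (26.5 to 43.4%) in Treg. Single CKO arrays ranged from 27.2 to 44.4% of the WT mean in unstimulated cells, from 11.4 to 18.8% in stimulated cells and from 29.0 to 40.0% in Treg. The share left was therefore lowest in stimulated cells, and the ranges over arrays of the stimulated and the other states did not overlap. These ranges leave out the spread of the WT arrays. How many of all probes separate in this way between states was not counted, so this too is description only.

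The same-numbered WT and CKO arrays of a state shared a slide. Within the 4 slides Trim28 differed by -1.74, -1.57, -1.56 and -1.17 in unstimulated cells, by -2.31, -2.82, -2.52 and -3.08 in stimulated cells and by -1.98, -1.60, -1.28 and -1.38 in Treg. Every slide pair had the same sign.

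The genotype effect on Trim28 differed between states. It was 1.17 larger in the downward direction in stimulated than in unstimulated cells (interaction -1.17 ± 0.24, adjusted p = 0.00904) and smaller in Treg than in stimulated cells (1.12 ± 0.24, adjusted p = 0.0104). With normexp background correction the first no longer passed (-1.21, adjusted p = 0.0708), nor did the second with quantile normalization (0.66, adjusted p = 0.128). Between Treg and unstimulated cells the effects differed by -0.05 (95% interval -0.55 to 0.45, adjusted p = 0.939). Such interactions were called for 2.95%, 4.23% and 0.365% of probes, in the order stimulated against unstimulated, Treg against stimulated and Treg against unstimulated.

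In WT naive cells Trim28 rose 2.31-fold with stimulation (1.21 ± 0.17, limma adjusted p = 2.84e-06), where 61.8% of probes were called. In CKO naive cells the difference was 0.04 ± 0.17 (adjusted p = 0.865), with 59.8% of probes called. Relative to stimulated cells Trim28 was lower in WT Treg (-1.66 ± 0.17, adjusted p = 2.16e-08, 72.3% of probes called) and in CKO Treg (-0.54 ± 0.17, adjusted p = 0.00875, 65.9% called), the latter a call lost when arrays were scaled on probes above background everywhere (-0.22, adjusted p = 0.309). Relative to unstimulated cells it differed by -0.46 ± 0.17 in WT Treg (adjusted p = 0.0346, 46.3% of probes called) and -0.50 ± 0.17 in CKO Treg (adjusted p = 0.036, 24.4% called). Both calls ended under that scaling (adjusted p = 0.351 and 0.170). The WT call also ended without any 1 of unstimulated replicates 2, 3 and 4 and Treg replicates 2, 3 and 4 (adjusted p up to 0.0950), and the CKO call without any 1 of unstimulated replicates 2, 3 and 4 and Treg replicates 1 and 2 (up to 0.133). The order of the group means was thus WT stimulated, WT unstimulated, WT Treg, CKO stimulated, CKO unstimulated and CKO Treg, and the CKO stimulated and unstimulated levels, 0.93 ± 0.31 and 0.89 ± 0.29 (SD), did not differ beyond their spread.

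**Figure D1:**
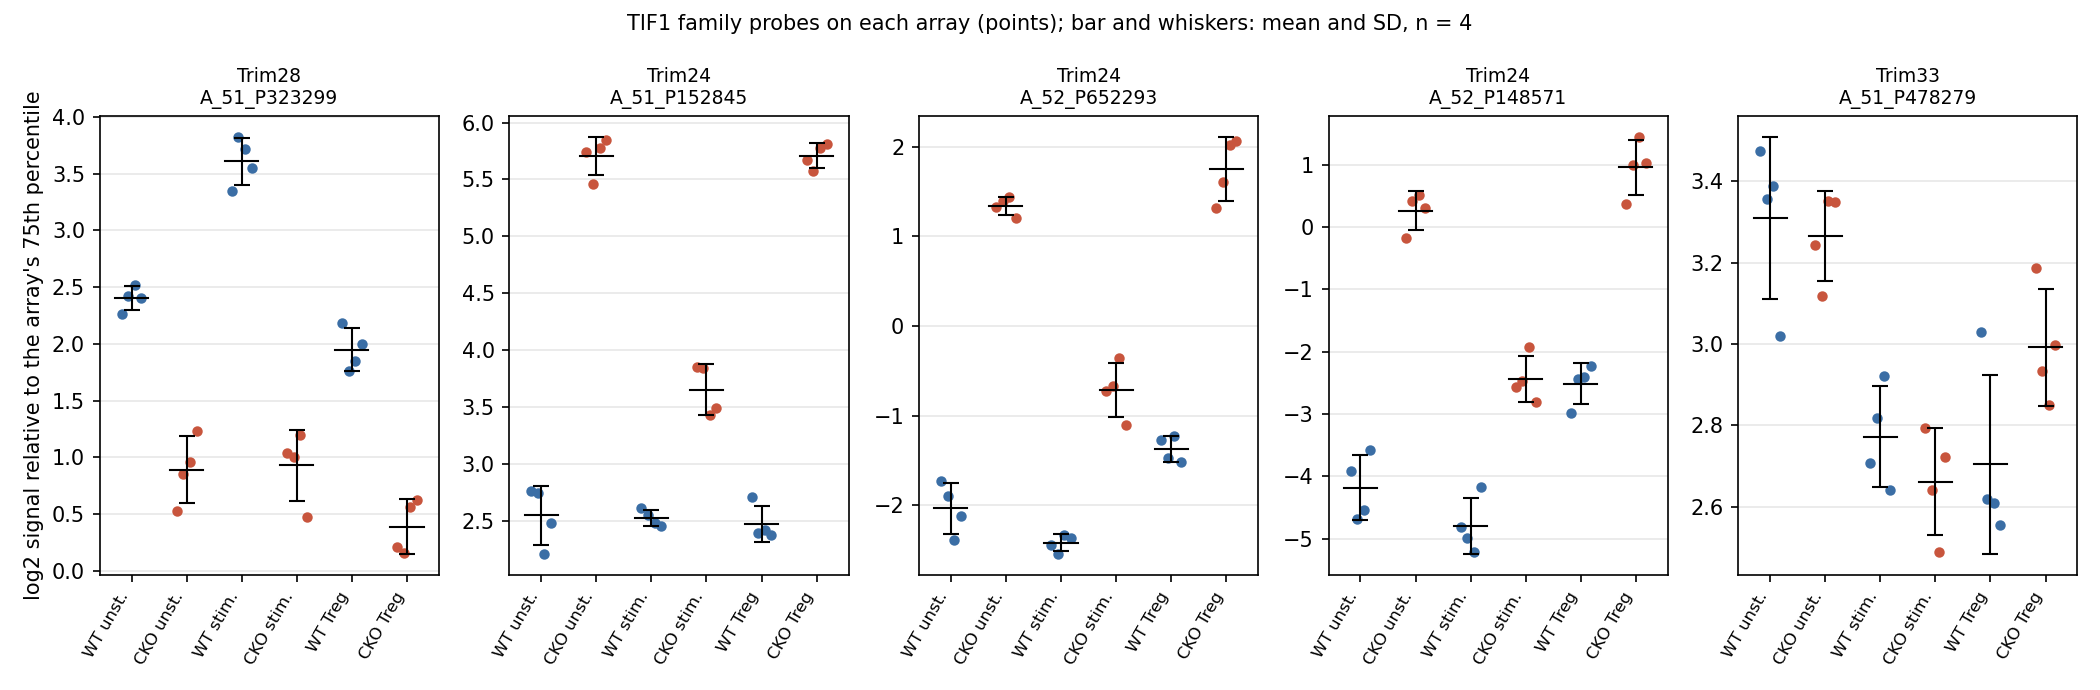
Level of each TIF1 family probe on each of 24 arrays, by group (WT blue, CKO red; unst., unstimulated; stim., stimulated; each panel has its own axis), with the mean and SD of 4 arrays in black. Trim28 falls and all 3 Trim24 probes rise in CKO arrays of each state with no overlap within a state, and the CKO stimulated arrays hold the lowest CKO level of Trim24, while the Trim33 panel, which spans less than the others, shows WT and CKO arrays overlapping. The share of all probes without such overlap was not counted.

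Trim24 lies on the plus strand of chromosome 6 at chr6:37870811-37968445 (GRCm38.p6). Its probes are placed by the deposited annotation on chromosome 6 at 37877042 to 37877101 (A_52_P148571), 37897028 to 37897087 (A_51_P152845) and 37899227 to 37899286 (A_52_P652293), 19986 and 2199 bases apart, in the unnamed build. A_51_P152845 names the RefSeq transcript and stands for the gene where 1 value is given. The other 2 were designed on RIKEN clones, whose names RefSeq lists as synonyms of Trim24. RefSeq's table gives 2 starts for Trim24, 29676 bases apart, and the 250 bases before each are shown since all probes of the gene moved together. Capitals mark GGGCGG on either strand at the first start (chr6:37870561-37870810) and TGACCT on either strand at the second (chr6:37900237-37900486), both on the plus strand of GRCm38.p6.
Trim24 first start: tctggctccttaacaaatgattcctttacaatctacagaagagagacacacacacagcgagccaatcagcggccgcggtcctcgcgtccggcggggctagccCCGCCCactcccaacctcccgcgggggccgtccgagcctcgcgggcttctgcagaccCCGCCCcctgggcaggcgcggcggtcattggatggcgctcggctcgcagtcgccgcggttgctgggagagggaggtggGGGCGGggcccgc
Trim24 second start: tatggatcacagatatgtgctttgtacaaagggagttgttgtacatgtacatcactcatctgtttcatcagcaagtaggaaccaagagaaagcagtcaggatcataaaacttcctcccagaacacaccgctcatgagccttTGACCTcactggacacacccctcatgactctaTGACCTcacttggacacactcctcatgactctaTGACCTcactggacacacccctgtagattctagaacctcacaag
The first stretch has 27 CpG, 3 GC boxes and 2 CCAAT boxes, and no TGACCT. The second has 1 CpG, no GC box and no CCAAT box, and holds TGACCT 3 times within a short repeated unit. CCAAT occurs in 33.9% of all stretches of that length and TGACCT in 14%, and 43 of the 32851 (0.131%) hold TGACCT at least 3 times, a number set after this sequence was seen. Which of the starts the cells used is not shown by the 3 probes.

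Trim24 RNA was higher in CKO cells of all 3 states on all 3 probes. On A_51_P152845 the WT level was near the same in every state, and the rise in CKO cells was 8.94-fold in unstimulated cells, 9.44-fold in Treg and 2.19-fold in stimulated cells. In unstimulated cells the WT arrays read 2.76, 2.74, 2.21 and 2.48 and the CKO arrays 5.74, 5.46, 5.78 and 5.85. In stimulated cells the WT arrays read 2.61, 2.55, 2.48 and 2.45 and the CKO arrays 3.85, 3.84, 3.43 and 3.49. In Treg the WT arrays read 2.71, 2.39, 2.41 and 2.37 and the CKO arrays 5.67, 5.57, 5.78 and 5.81. WT and CKO arrays did not overlap in any state, and the CKO stimulated arrays lay between the WT arrays and the other CKO arrays.

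The fold change on A_51_P152845 was 8.94 in unstimulated cells (log2 3.16 ± 0.14, SE, limma adjusted p = 3.01e-12), 2.19 in stimulated cells (1.13 ± 0.14, adjusted p = 1.01e-05) and 9.44 in Treg (3.24 ± 0.14, adjusted p = 1.93e-12). Among the 25198 probes it ranked 60, 1594 and 71 by the size of the rise in these states. Within the 4 slides the difference was 2.98, 2.72, 3.57 and 3.37 in unstimulated cells, 1.24, 1.29, 0.95 and 1.04 in stimulated cells and 2.97, 3.18, 3.37 and 3.44 in Treg. No slide pair of the stimulated state reached the smallest difference of the other states.

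The probe A_52_P652293 also rose least in stimulated cells. In unstimulated cells its WT arrays read -1.73, -1.90, -2.39 and -2.12 and its CKO arrays 1.32, 1.39, 1.44 and 1.20. In stimulated cells they read -2.44, -2.54, -2.33 and -2.36 against -0.72, -0.67, -0.36 and -1.10, and in Treg -1.27, -1.47, -1.22 and -1.52 against 1.32, 1.61, 2.02 and 2.06. The WT and CKO arrays stood apart in each state. The log2 fold changes were 3.37, 1.71 and 3.12 (± 0.17, SE) in unstimulated, stimulated and Treg cells, with limma adjusted p-values of 4.65e-11, 1.10e-06 and 6.55e-11. Normexp correction brought them to 2.39, 1.04 and 1.70, all still called.

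The dimmest probe, A_52_P148571, changed most in unstimulated cells. In unstimulated cells its WT arrays read -3.91, -4.68, -4.54 and -3.57 and its CKO arrays -0.18, 0.41, 0.51 and 0.31. In stimulated cells they read -4.81, -4.98, -5.21 and -4.17 against -2.56, -2.47, -1.92 and -2.81, and in Treg -2.98, -2.44, -2.40 and -2.23 against 0.37, 1.00, 1.45 and 1.02. Here too no CKO array overlapped a WT array of its state. The log2 fold changes were 4.44, 2.35 and 3.47 (± 0.28, SE), with limma adjusted p-values of 8.12e-10, 7.74e-06 and 3.05e-08. One WT stimulated array was not well above background, and normexp correction brought the values to 2.13, 0.81 and 1.41 (adjusted p = 6.04e-05, 0.0754 and 0.0133), which ended the call in stimulated cells.

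Differences in size between the 3 probes did not pass a test. The effect on A_52_P148571 minus that on A_51_P152845 was 1.28 in unstimulated cells, 1.22 in stimulated cells and 0.23 in Treg. An exact permutation test over arrays, 2-sided, gave adjusted p = 0.0857 at the lowest over the 9 comparisons of probes, where the smallest raw p the design allows is 0.0286, so none passed. The differences of 1.28 and 1.22 had that smallest raw p, as did A_51_P152845 minus A_52_P652293 in stimulated cells (-0.58). After adjustment any can pass only if most of the 9 reach it, so the test cannot show that the effects are equal. After normexp correction the order of A_52_P148571 and A_51_P152845 turned, since the effect on A_52_P148571 was then 2.13, 0.81 and 1.41, below the lowest value of A_51_P152845 under any alternative, 3.05, 0.93 and 3.18.

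The rise of Trim24 was smaller in stimulated than in unstimulated cells on each probe: the interaction was -2.03 ± 0.19 on A_51_P152845 (limma adjusted p = 2.84e-06), -1.67 ± 0.24 on A_52_P652293 (adjusted p = 4.79e-04) and -2.09 ± 0.40 on A_52_P148571 (adjusted p = 0.00467). Treg against stimulated cells gave 2.11 ± 0.19 (adjusted p = 2.11e-06), 1.42 ± 0.24 (adjusted p = 0.00198) and 1.12 ± 0.40 (adjusted p = 0.105) in the same order. Quantile normalization made the last of these pass (1.83, adjusted p = 0.00458). With normexp correction the stimulated against unstimulated call of A_52_P148571 (-1.32, adjusted p = 0.245) and the Treg against stimulated call of A_52_P652293 (0.67, adjusted p = 0.369) were lost, while both calls of A_51_P152845 held under each alternative. Between Treg and unstimulated cells the effect on A_51_P152845 differed by 0.08 (95% interval -0.32 to 0.48, adjusted p = 0.868).

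**Figure D2:**
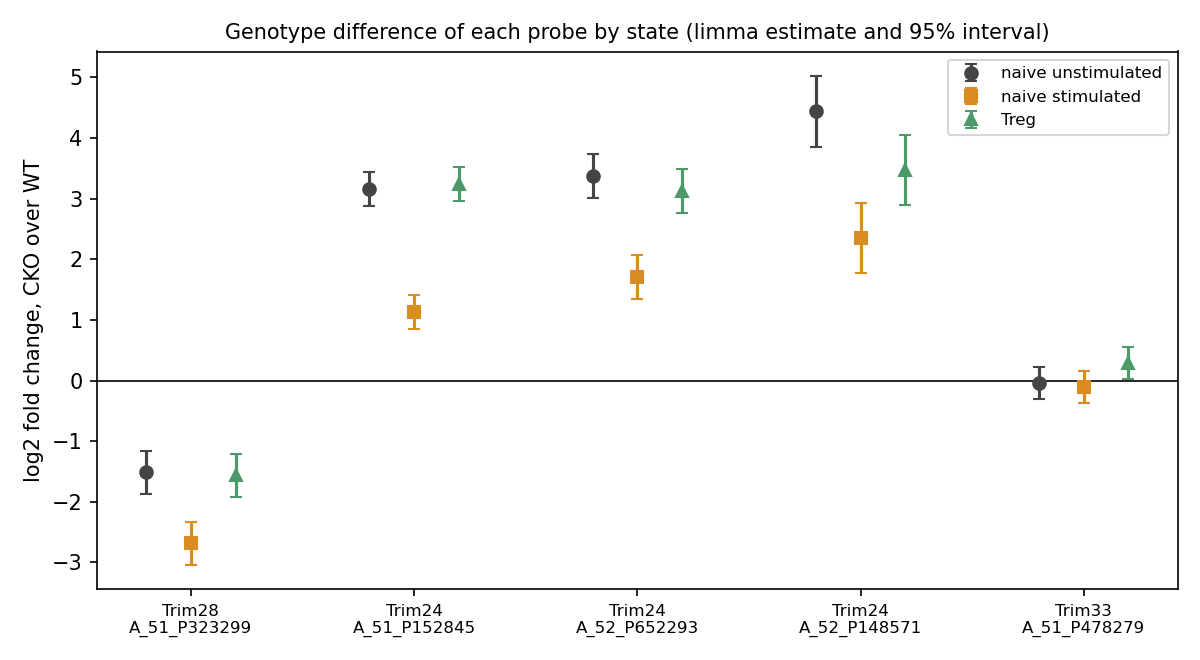
Log2 fold change of CKO over WT for each probe (points, limma estimates from 24 arrays) with 95% intervals, by state (grey circles unstimulated, orange squares stimulated, green triangles Treg). In stimulated cells the Trim28 fall is the largest of the 3 states (-2.68) and the rise of each Trim24 probe the smallest (1.13, 1.71 and 2.35). Trim33 lies near 0 in the naive states and at 0.29 in Treg (interval 0.02 to 0.55, limma adjusted p = 0.304).

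In WT cells A_51_P152845 read 2.55 ± 0.26 (SD, n = 4) unstimulated, 2.52 ± 0.07 stimulated and 2.47 ± 0.16 in Treg, levels that did not differ beyond their spread. The difference between WT Treg and stimulated cells, -0.05 ± 0.14 (SE), depended on the scaling: quantile normalization gave 0.45 (adjusted p = 0.00785) and normexp correction -0.62 (adjusted p = 0.013). In CKO cells the level was 5.71 ± 0.17 unstimulated, 3.65 ± 0.23 stimulated and 5.71 ± 0.11 in Treg. It was thus 4.16-fold lower in stimulated than in unstimulated CKO cells (limma adjusted p = 8.37e-11), and 4.17-fold higher in Treg than in stimulated CKO cells (adjusted p = 5.58e-11). The RIKEN clone probes differed from this in WT cells, where their scaled level was higher in Treg than in unstimulated cells, by 1.67 ± 0.28 on A_52_P148571 (adjusted p = 1.20e-04) and 0.66 ± 0.17 on A_52_P652293 (adjusted p = 0.00447). In scanner signal A_52_P148571 read 10.5 to 20.0 in WT unstimulated cells and 11.9 to 38.5 in WT Treg. A_52_P652293 read 39.4 to 91.1 and 19.5 to 80.8. These differences therefore rest in part on the scaling, as the percentile signal was 171 to 302 and 55.7 to 208. The lowest level well above background was -5.70 to -4.79 and -5.12 to -3.35.

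CKO stimulated and CKO unstimulated cells held near-equal Trim28 levels, 0.93 and 0.89, while Trim24 on A_51_P152845 stood at 3.65 and 5.71. CKO Treg, at a Trim28 level of 0.39 ± 0.24, differed from CKO unstimulated cells by 0.0033 on that Trim24 probe (adjusted p = 0.989) and by -0.51 after normexp correction (adjusted p = 0.0515). On A_52_P148571 and A_52_P652293 the difference was 0.69 ± 0.28 and 0.41 ± 0.17 (adjusted p = 0.0753 and 0.0874), and both passed after quantile normalization (0.77 and 0.53, adjusted p = 0.0275 and 0.0343). In CKO cells these 2 probes read 0.26 ± 0.31 and 1.34 ± 0.10 (SD, n = 4) unstimulated, -2.44 ± 0.37 and -0.71 ± 0.30 stimulated, and 0.96 ± 0.44 and 1.75 ± 0.36 in Treg. Over the 24 arrays Trim28 correlated with the 3 Trim24 probes at r = -0.79 to -0.86 and the Trim24 probes with each other at r = 0.92 to 0.98. These arrays fall into genotype groups and share their scaling, so the values only describe the split seen in the plot of Trim28 and Trim24 levels.

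**Figure D3:**
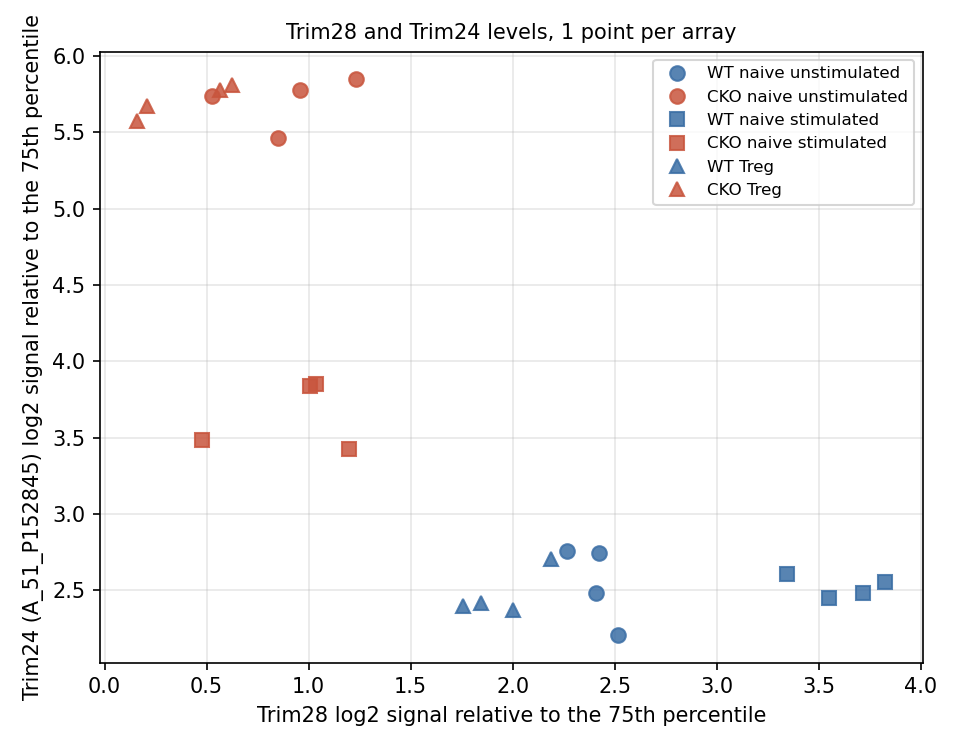
Trim24 level (A_51_P152845, vertical axis) against Trim28 level (horizontal axis), both log2 relative to the array's 75th percentile, with 1 point for each of 24 arrays (WT blue, CKO red; circles unstimulated, squares stimulated, triangles Treg). The WT arrays spread along the Trim28 axis at a flat Trim24 level, and the CKO stimulated arrays sit at 3.43 to 3.85 on the Trim24 axis, below the other CKO arrays at 5.46 to 5.85.

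Markers of other cell types were read in the same fits. The summed log2 level of 12 B cell markers was 3.78 to 5.62 in WT and 4.88 to 6.71 in CKO unstimulated cells, with 2 markers called higher, and 0.54 to 2.32 against 1.61 to 3.50 in stimulated cells, with 3 called higher. These are 16.7% and 25% of the list, near the 19.5% and 22.4% of all probes called, while the list medians were 1.15 and 1.30. In Treg it was 2.87 to 4.48 against 3.08 to 4.58, with 0 called by limma, also at an unadjusted p under 0.05. The called count ran from 0 to 7 and from 1 to 12 over the alternatives in the naive states. Of 10 measured CD8 and NK cell markers 2 were called higher in unstimulated cells, 2 higher and 1 lower in stimulated cells and 1 each way in Treg (0 to 5, 0 to 5 and 0 to 2 over the alternatives), and of 12 myeloid markers limma called 0 in each state, with 1, 2 and 0 at an unadjusted p under 0.05 and up to 2, 10 and 0 called over the alternatives. The CD8 and NK calls are 20%, 30% and 20% of their list, against 19.5%, 22.4% and 3.77% of all probes. Of 3 erythroid and platelet markers 0 were called, also unadjusted. The 11 CD8 and NK markers on the array summed to 4.22 to 4.93 in WT and 4.39 to 5.48 in CKO unstimulated cells, 2.70 to 3.33 and 2.89 to 3.55 in stimulated cells and 3.16 to 3.79 and 2.86 to 3.62 in Treg. Of 9 naive T cell markers 3 were called lower in unstimulated and 2 higher in stimulated CKO cells, and of 7 Treg markers 4 were higher and 1 lower in unstimulated, 2 higher and 1 lower in stimulated and 1 lower in Treg. The naive marker calls are 33.3%, 22.2% and 0% of their list and the Treg marker calls 71.4%, 42.9% and 14.3%, against 19.5%, 22.4% and 3.77% of all probes. The part of any of these in the Trim28 and Trim24 differences of naive cells was not tested.

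Trim33 lies on chromosome 3 at chr3:103279293-103358770 (GRCm38.p6), and its probe is placed by the deposited annotation at chromosome 3, 103149362 to 103149421. No difference of Trim33 between CKO and WT cells passed the test. In unstimulated cells the WT arrays read 3.47, 3.36, 3.39 and 3.02 and the CKO arrays 3.24, 3.12, 3.35 and 3.35. In stimulated cells they read 2.71, 2.82, 2.92 and 2.64 against 2.79, 2.64, 2.49 and 2.72, and in Treg 3.03, 2.62, 2.61 and 2.56 against 3.19, 2.93, 2.85 and 3.00. WT and CKO arrays overlapped in each state. In Treg this rested on WT replicate 1 (3.03), as the other WT arrays lay below the lowest CKO array (2.85).

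The difference was -0.04 (95% interval -0.31 to 0.22, limma adjusted p = 0.83) in unstimulated cells, -0.11 (-0.38 to 0.15, adjusted p = 0.554) in stimulated cells and 0.29 (0.02 to 0.55, adjusted p = 0.304) in Treg. Within the slides it was -0.23, -0.24, -0.04 and 0.33, then 0.09, -0.18, -0.43 and 0.08, and in Treg 0.16, 0.31, 0.24 and 0.44. The sign was mixed in the naive states and the same in all Treg pairs. The intervals allow changes of up to 0.55 on the log2 scale, well under the shifts of Trim28 and Trim24. The genotype effects of Trim33 in the 3 states did not differ past the test either, at -0.07, 0.33 and 0.40 for stimulated minus unstimulated, Treg minus unstimulated and Treg minus stimulated (adjusted p = 0.896, 0.402 and 0.190). The last of these passed with array weights (0.45, adjusted p = 0.0376).

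Between some of the states Trim33 differed, and each contrast in which it was called also called 46.3% of all probes or more. It was lower in stimulated than in unstimulated cells of both genotypes, by -0.54 ± 0.13 in WT (limma adjusted p = 9.62e-04) and -0.60 ± 0.13 in CKO cells (adjusted p = 3.51e-04). Stimulation was called for 61.8% of all 25198 probes in WT and 59.8% in CKO cells. By the size of the change Trim33 ranked only 15889 and 14405 among them. The WT call was lost after normexp correction (adjusted p = 0.0646). In WT Treg it was lower than in unstimulated cells (-0.61 ± 0.13, adjusted p = 8.92e-04). Of all probes 46.3% were called in that contrast and 24.4% in the same contrast of CKO cells. For Treg against stimulated cells the shares were 72.3% in WT and 65.9% in CKO. In CKO the Treg level was -0.27 ± 0.13 from the unstimulated one (adjusted p = 0.123), a difference that passed after normexp correction (-0.74, adjusted p = 0.0136) and with array weights (adjusted p = 0.0317), and 0.33 ± 0.13 above the stimulated one (adjusted p = 0.0277), a call that ended when the other groups were left out of the fit (adjusted p = 0.0681), after normexp correction (-0.08, adjusted p = 0.727) and without stimulated replicate 2 or 3 or Treg replicate 1 (adjusted p up to 0.0887). WT Treg and WT stimulated cells differed by -0.07 ± 0.13 (adjusted p = 0.639), which became 0.45 after quantile normalization (adjusted p = 0.00160).

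**Figure D4:**
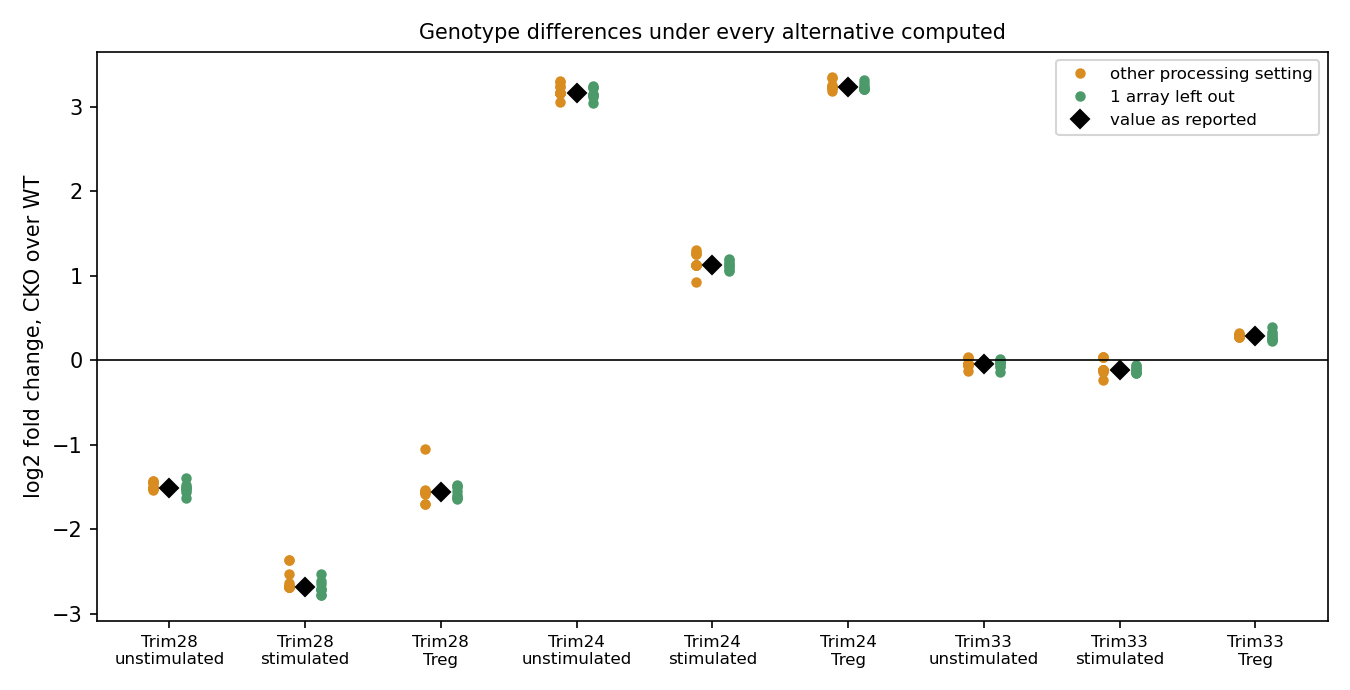
Log2 fold change of CKO over WT for the probe that stands for each gene and state, as reported (black diamonds), under each other processing setting (orange) and with 1 array left out (green). Each Trim28 value stays below 0 and each Trim24 value above 0, and the Trim33 values of the naive states lie on both sides of 0.

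Genes that work with each member, other tripartite motif genes and interferon-stimulated genes were described from lists. The lists were chosen with earlier results of these data known, so their shares beside those of all probes are description only. Of 32 measured TRIM28 silencing partners 6 were called higher and 1 lower in unstimulated CKO cells (list median 0.09 against 0.03 for all probes), 5 higher and 9 lower in stimulated cells (-0.21 against -0.03) and 2 higher in Treg (0.07 against 0.01). These are 21.9%, 43.8% and 6.25% of the list, against 19.5%, 22.4% and 3.77% of all probes called, so the unstimulated share is near the background. Over the alternatives the count of called partners ran from 1 to 16, from 4 to 20 and from 2 to 3. Morc3, a chromatin ATPase that takes part in silencing of repeats, rose in unstimulated cells (1.504 ± 0.131, limma adjusted p = 1.25e-07) and in Treg (2.06 ± 0.13, adjusted p = 6.39e-10), and a further probe gave 1.37 and 2.05. Setdb1, the histone methyltransferase brought in by TRIM28, rose in Treg (2.45 ± 0.21, adjusted p = 6.21e-08). Its probes disagreed in size: a second one gave 4.69 in Treg and 2.18 in stimulated cells, where the first gave 0.73 (adjusted p = 0.0174, held under 15 of 20 alternatives). Atf7ip, the partner of SETDB1, rose by 0.73 ± 0.15 in unstimulated and 0.72 ± 0.15 in stimulated cells (adjusted p = 0.00265 and 0.00207), calls lost after normexp correction (adjusted p = 0.185 and 0.239). A further probe gave 0.28 ± 0.14 in unstimulated cells (adjusted p = 0.168). Uhrf1, which guides maintenance of DNA methylation, fell in stimulated cells (-1.26 ± 0.24, adjusted p = 9.53e-04).

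Of 14 measured retinoic acid receptors and targets, the setting in which TRIM24 is best known, 1 was higher in unstimulated cells, 1 higher and 1 lower in stimulated cells and 1 higher in Treg, with list medians of 0.05, 0.14 and -0.04. The called shares were 7.14%, 14.3% and 7.14%, in the naive states below the background. Dhrs3, which lowers retinal, differed by 1.20 ± 0.38 in unstimulated cells, Ccr9, a gut-homing receptor, by 0.95 ± 0.30 in stimulated cells and 1.17 ± 0.30 in Treg, and Rxra, the shared partner of retinoid receptors, by -0.48 ± 0.17 in stimulated cells (limma adjusted p = 0.0314, 0.0298, 0.0293 and 0.0419). All 4 calls were lost under several alternatives, and each count fell to 0 under at least 1 of them. Of 24 measured interferon-stimulated genes 8 were higher and 2 lower in stimulated cells (list median 0.72), 2 lower in unstimulated cells (-0.33) and 1 higher in Treg (-0.11). The called share was 41.7% in stimulated cells against 22.4% of all probes, 8.33% in unstimulated cells against 19.5% and 4.17% in Treg against 3.77%. With stimulation 23 of the 24 were called lower in WT (list median -3.59) and 22 in CKO cells (-2.58). These are 95.8% and 91.7% of the list, against 61.8% and 59.8% of all probes. The stimulated genotype difference thus lies between 2 lowered levels. Usp18, which damps interferon signalling, was higher in CKO than in WT by 2.75 ± 0.19 in stimulated cells (adjusted p = 5.04e-09) and 0.88 ± 0.19 in Treg (adjusted p = 0.00776, lost after normexp correction with adjusted p = 0.150). Irf7, a regulator of interferon genes, and Oas1a, an RNA sensor, were higher by 1.73 ± 0.25 and 1.91 ± 0.26 in stimulated CKO than WT cells (adjusted p = 8.01e-05 and 4.28e-05), and Bst2, a restriction factor, was lower by 0.87 in unstimulated CKO cells (adjusted p = 0.00135). Over the alternatives the interferon count ran from 1 to 11, 6 to 11 and 0 to 2 in unstimulated, stimulated and Treg cells.

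Of 19 measured genes of the SMAD pathway, in which TRIM33 acts, 2 were higher and 5 lower in unstimulated cells, 4 higher in stimulated cells and 1 higher in Treg, with list medians of -0.10, 0.10 and -0.05. The called shares were 36.8%, 21.1% and 5.26%, near the background of 22.4% and 3.77% in stimulated cells and Treg and above the 19.5% in unstimulated cells. Over the alternatives these counts ran from 2 to 10, 1 to 8 and 0 to 1. Tgfb3, a TGF-beta ligand, rose in each state (3.06, 3.21 and 2.94 ± 0.29, limma adjusted p = 3.83e-07, 2.25e-07 and 5.17e-07), and its probe cleared background on 2 of 4 WT stimulated arrays. Tgfbr2, the type II receptor, fell by 0.90 in unstimulated cells (adjusted p = 5.02e-05, lost after normexp correction with adjusted p = 0.0537). Its further probes gave -0.18 ± 0.16 and 0.53 ± 0.35 there (adjusted p = 0.446 and 0.289), so the probes of Tgfbr2 disagree. Of 36 other tripartite motif genes 2 were higher and 2 lower in unstimulated cells, 4 higher and 5 lower in stimulated cells and 0 in Treg, where 2 had an unadjusted p under 0.05 and limma called 0 under each alternative. The called shares of 11.1% and 25% in the naive states compare with 19.5% and 22.4% of all probes. Counts over the alternatives were 0 to 17 and 0 to 21 there. Trim12 rose in stimulated cells (1.00 ± 0.15, adjusted p = 9.37e-05, and 0.83 on a second probe), a call that normexp correction ended (adjusted p = 0.0926). Trim66, the TIF1 delta gene, differed by -1.19 ± 0.39 in stimulated cells (adjusted p = 0.0328), well above background on 1 of 4 CKO and 3 of 4 WT arrays, and by 0.10 after normexp correction. Of the 61 calls of list genes that the rule names, 15 held under each alternative and 25 under each but normexp.

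The genes next to each member were read in the same fits. Upstream of Trim28, Slc27a5, a bile acid and fatty acid coenzyme A ligase, rose in each state (1.02, 1.55 and 1.05 ± 0.19, limma adjusted p = 0.00124, 8.67e-06 and 0.00115). Those calls were lost after normexp correction (adjusted p = 0.420, 0.213 and 1.00). Ube2m, the NEDD8 conjugating enzyme, was lower in unstimulated and stimulated cells (-0.55 and -0.53 ± 0.13, adjusted p = 0.00857 and 0.00771) and in Treg (-0.48 ± 0.13, adjusted p = 0.0435). Quantile normalization ended its stimulated call (adjusted p = 0.0716), normexp correction its unstimulated call (adjusted p = 0.0898) and several alternatives its Treg call. Of the other neighbours of Trim28, Zbtb45 and Chmp2a fell in unstimulated cells (-0.45 and -0.53, adjusted p = 0.0235 and 0.0119) and Zfp446 in Treg (-0.94, adjusted p = 0.0442), and Mzf1 passed in no state. These calls held under 13 of 20, 17 of 20 and 8 of 19 alternatives, and Zfp446 was well above background on 1 of 4 CKO and 3 of 4 WT Treg arrays. Next to Trim24, Zc3hav1l, read by a probe deposited under an older name, E430016P22Rik, rose in unstimulated cells (1.18 ± 0.15, adjusted p = 2.43e-05) and in Treg (0.74 ± 0.15, adjusted p = 0.00438, held under 18 of 20 alternatives), and differed by -0.03 ± 0.15 in stimulated cells. It lies 318949 bases beyond Trim24, and none of the other 5 neighbours of Trim24 passed the test in any state. Beside Trim33, Ampd1 and Dennd2c fell in unstimulated cells (-1.77 ± 0.26 and -2.23 ± 0.37, adjusted p = 1.17e-04 and 5.52e-04), both lost after normexp correction (adjusted p = 0.0666 and 0.743). Dennd2c was well above background there on 2 of 4 CKO and 4 of 4 WT arrays. Its CKO mean of -5.68 lay under the lowest level well above background on those CKO arrays, -5.51, so the size of its fall is uncertain. Bcas2 fell in stimulated cells (-0.54 ± 0.17, adjusted p = 0.0269), a call held under 11 of 20 alternatives.

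**Figure D5:**
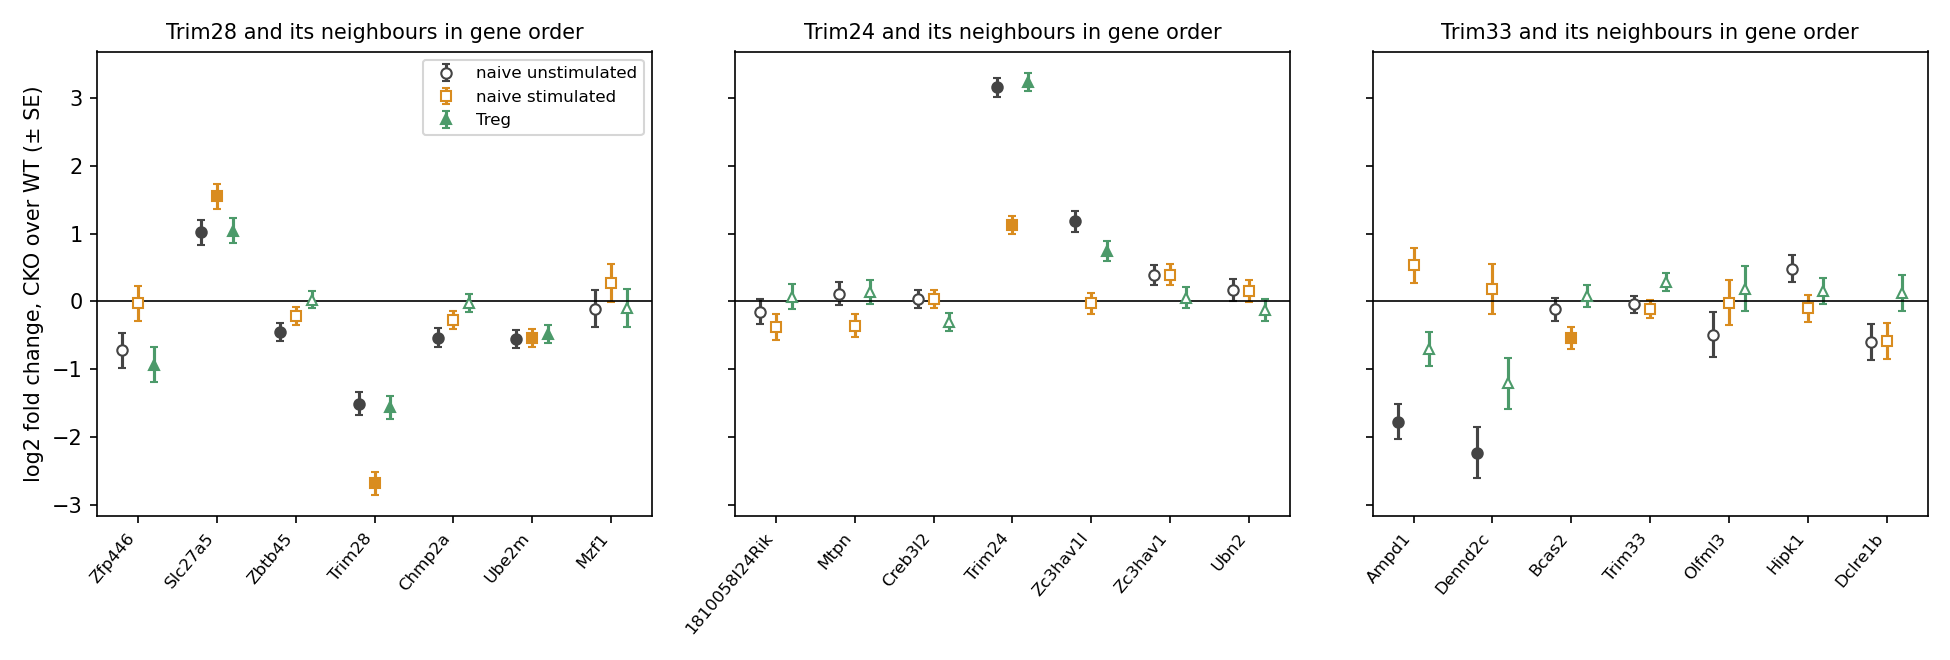
Log2 fold change of CKO over WT (± SE, limma) for each member and its 3 nearest measured neighbours on each side in RefSeq gene order, by state (grey circles unstimulated, orange squares stimulated, green triangles Treg); filled points passed the test and open points did not. Trim24 and Trim28 stand at 3.16 and -1.51 in unstimulated cells, and Zc3hav1l, like Trim24, is highest in unstimulated cells and Treg, at 1.18 and 0.74, with -0.03 in stimulated cells.

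The genes whose level over the 24 arrays was most like that of each member were listed by Pearson's r. For Trim24 these were Upk1b (r = 0.975), Lix1 (0.954), Cnr1 (0.943), Cbr3 (0.939) and Cthrc1 (0.936). Their group means were highest in CKO unstimulated cells and CKO Treg, which follows from their choice by likeness to Trim24. Lix1, Cnr1 and Cthrc1 had WT group means of -7.18 to -6.31, under the lowest level well above background on any WT array, -5.77. Upk1b was also under it in WT stimulated cells (-7.35). In WT Treg it stood at -5.69, where the lowest level well above background was -5.12, and in WT unstimulated cells at -4.83. With normexp correction r fell to 0.26 for Cnr1, 0.422 for Cthrc1 and 0.479 for Lix1, and was 0.858 for Upk1b and 0.923 for Cbr3. For Trim28 they were Napa (0.907), Gdf11 (0.884), Prkcz (0.856), Fmr1 (0.844) and Tspan31 (0.841), with Gdf11 at -0.18 and Prkcz at 0.592 after normexp. For Trim33 they were Zfp68 (0.949), Galnact2 (0.930), Ids (0.927), Rod1 (0.922) and Evi2a (0.921), with r from 0.727 to 0.971 after that correction. The arrays share groups and scaling, and these values describe likeness only.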

How the data were processed

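Per the labels and file headers, Cy3-labelled RNA was hybridized to Agilent mouse arrays read with Feature Extraction 9.5 (headers: 9.5.3.1). The deposited scanner files hold each spot's processed signal, an intensity that the authors' software had background-subtracted and detrended. The authors' normalized values, also a linear intensity, had the same median in every column and served as an alternative. Their direction and scale followed the scanner values (r = 0.989 to 1.00).

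Signals were expressed as log2 relative to the 75th percentile of their array, with spots marked as outliers dropped and repeated spots averaged by probe. Probes well above background on at least 3 of 4 arrays of 1 group were kept. Group means of 24 arrays were fitted with limma 3.58.1 in R 4.3.3 (jsonlite 2.0.0), tested 2-sided and adjusted by Benjamini-Hochberg over all kept probes of each of 12 contrasts, with 0.05 as threshold. The fit was checked on simulated data. Figures used matplotlib 3.10.9 in Python 3.11.15. The number of arrays limits the precision.

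Per gene list, up to 6 called genes with the largest change were named per genotype contrast, with the brightest probe for a gene, the 3 nearest measured neighbours on each side and the 5 genes with the highest correlation. Neighbours and older names were matched through RefSeq symbols (21126 of 25198 kept probes), and the promoter stretches come from RefSeq GRCm38.p6. Members and lists were chosen with earlier results of these data known. Alternatives were normexp correction (offset 50), other scalings and filters, replicate, slide and age terms, array weights, only the compared arrays, the brightest probe per gene and leaving out each array. The normexp offset narrows the log2 differences of dim probes. Same-numbered arrays did not deviate together in every pair, so the numbers were not treated as paired.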

Additional observations from a re-analysis of the deposited data

Results flagged for a closer look

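Of 30 groups of 4 arrays tested for 1 array standing apart, 2 did, where chance gives about 1 in 20. Both were in WT Treg, and in both replicate 1 was the high array: on Trim24 probe A_51_P152845 it read 2.71 against 2.37 to 2.41 for the others (gap over range 0.872), and on Trim33 probe A_51_P478279 it read 3.03 against 2.56 to 2.62 (0.867). Both exceed Dixon's limit for 4 values. Without that array the genotype difference in Treg was 3.32 for Trim24 and 0.40 for Trim33.

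The genotype effect differed between states, by a limma interaction term, in 7 of 15 tests. Over all probes 2.95% were called for stimulated minus unstimulated cells, 0.365% for Treg minus unstimulated cells and 4.23% for Treg minus stimulated cells. For Trim28 it was -1.17 for stimulated minus unstimulated cells and 1.12 for Treg minus stimulated cells. On the Trim24 probe A_51_P152845 it was -2.03 and 2.11, on A_52_P652293 -1.67 and 1.42, and on A_52_P148571 -2.09 for stimulated minus unstimulated cells.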

How the results depend on the processing

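The genotype calls of Trim28 and of Trim24 on A_51_P152845 held in each state under all 12 other settings and with each of 8 arrays left out: Trim28 ran from -1.63 to -1.39 in unstimulated, -2.77 to -2.36 in stimulated and -1.70 to -1.05 in Treg cells, and Trim24 from 3.05 to 3.30, 0.93 to 1.31 and 3.18 to 3.35. Of the Trim28 interactions, stimulated minus unstimulated was -1.21 after normexp, Treg minus stimulated 0.66 after quantile normalization and 0.66 with the authors' values, and Treg minus unstimulated 0.38 after normexp and -0.17 to 0.066 with arrays left out. In CKO naive cells the Trim28 difference with stimulation was -0.041 after normexp, -0.031, -0.14 and -0.031 with quantile normalization, the percentile over probes above background everywhere and the authors' values (below, the 3 scalings), and -0.085 to 0.19 with arrays left out. Trim28 in Treg against unstimulated cells was -0.24, -0.22 and -0.24 in WT with the 3 scalings, -0.46 with no filter and -0.54 to -0.39 with arrays left out. In CKO it was -0.36 with the second scaling, -0.50 with only the compared arrays and -0.63 to -0.39 with arrays left out, and against CKO stimulated cells -0.22 with the second scaling. Trim24 in WT stimulated against unstimulated cells was 0.057 with array weights and -0.14 to 0.046 with arrays left out. In WT Treg it was 0.18, 0.16, 0.18 and -0.63 against unstimulated cells, and 0.45, 0.44, 0.45 and -0.62 against stimulated cells, with the 3 scalings and normexp. In CKO Treg against unstimulated cells it was -0.013 with the slide block, -0.00094 with age, -0.51 after normexp and -0.0783 to 0.0504 with arrays left out, and its Treg minus unstimulated interaction was -0.016 with the second scaling and -0.0028 to 0.19 with arrays left out. Trim33 in CKO against WT was 0.0291, 0.0341 and 0.0296 in unstimulated cells (-0.14 to 0.011 with arrays left out) and 0.042, 0.042 and 0.043 in stimulated cells with the 3 scalings. Its interaction was 0.013, 0.0076 and 0.014 for stimulated minus unstimulated (-0.12 to 0.0302 with arrays left out) and 0.45 with array weights for Treg minus stimulated. Its WT stimulation difference was -0.49 after normexp. In WT Treg against stimulated cells it was 0.0102 with the slide block, 0.45, 0.42 and 0.45 with the 3 scalings and -0.65 after normexp, and in CKO -0.084 after normexp, 0.33 with only the compared arrays and 0.27 to 0.38 with arrays left out. In CKO Treg against unstimulated cells it was -0.74 after normexp and -0.29 with array weights. On Trim24 probe A_52_P652293 the Treg minus unstimulated interaction was 0.0692 with quantile normalization and 0.0695 with the authors' values. After normexp Il2 in unstimulated cells was at 0.011, Trim66 in stimulated cells at 0.099 and the r of Gdf11 with Trim28 at -0.18. The cause of these changes was not tested.

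The count of called probes was 4916, 5651 and 950 in unstimulated, stimulated and Treg cells, 558, 1804 and 104 after normexp, 11054, 12296 and 938 with array weights, and 2893, 3615 and 733 with no filter. With 1 array left out the counts ran from 1957 to 7726, 3276 to 6602 and 768 to 923. They moved by over 1.5 times without unstimulated WT replicate 2, 3 or 4 (1957, 2293, 7726) or CKO replicate 2 or 3 (2354, 2429), and without stimulated WT replicate 2 (3276) or CKO replicate 2 or 3 (3457, 3424), so the background shares move too. The interaction counts of 743, 92 and 1067 ran from 449 to 1139, 63 to 625 and 636 to 1784. The share of calls that were higher was 45.7%, 50.9% and 60.3%, with 60% in unstimulated and 72.8% in stimulated cells under the second scaling and 88.5% in Treg after normexp. That scaling moved the median of all probes from -0.03 to 0.12 in stimulated cells. With the replicate block the counts were 5983, 6972 and 1185, the Treg minus stimulated count 1773 against 1067, and no genotype call or interaction call of a member changed. Same-numbered arrays correlated in their deviations at -0.32 to 0.43, and the best match had the same number for 1, 2 and 3 of 4 pairs in the 3 states. The number of arrays and, for A_52_P148571, a signal near background limit the precision.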
